A study of Mus musculus with 2 samples.

Results

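Genes of mitosis were followed in 2 populations of cells sorted from E13.5 mouse forelimbs, ScxGFP-positive and ScxGFP-negative, from embryos that carried the ScxGFP reporter on a mixed strain background. The reporter places green fluorescent protein under *Scx* control; scleraxis, its protein, marks progenitors of tendon and ligament, so the negative population holds the limb cells without visible reporter. For each population 6 forelimbs (3 pairs) were pooled and 1 library was sequenced. The 50 genes described here were taken by symbol from a fixed list of mitotic spindle, checkpoint and chromosome genes, out of 22096 symbols in the files, by a rule that uses no measured value, though with earlier results of these data known. All 50 were present, in 66 transcript rows with status OK in both libraries, and all 50 passed the filter of at least 1 FPKM in at least one library.

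With 1 library per population there are no replicates and no test, and each difference below describes these 2 libraries only. The level used is the deposited FPKM (fragments scaled by transcript length and by mapped fragments of the library), added up over a gene's transcripts. The log2 ratio is log2((FPKM positive + 1) / (FPKM negative + 1)), which understates the difference of genes at low levels. A gene was called higher or lower when that ratio reached 2-fold. In bulk libraries fewer dividing cells and less mitotic RNA per dividing cell cannot be told apart.

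A cell enters mitosis when Cdk1, bound to cyclin A or cyclin B, is switched on by Cdc25 phosphatases. Chromosomes are then compacted by condensin and topoisomerase II, attached through kinetochores to a spindle built with kinesin motors, and held by the spindle checkpoint until all are attached. The anaphase-promoting complex (APC/C) next marks securin and cyclin B for destruction, separase frees the sister chromatids, and the midzone and contractile ring divide the cell. Transcripts of most of these genes are made in G2 and M phase and are low in resting cells, which is why they are commonly read as a sign of dividing cells. Their promoters are known for a cell cycle homology region (CHR, TTTGAA), to which the DREAM and MuvB complexes bind, and for CCAAT boxes, to which NF-Y binds.

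The promoters of the members carried these motifs more often than promoters in general. RefSeq promoter sequences of GRCm38.p6, 250 bases before to 50 bases after each start, were at hand for 42 of the 50 members, in 45 promoters. TTTGAA, searched on both strands, was found in 34 of the 45 (75.6%), against 17.9% of all 32851 promoters in the table and 11.6% of the 10717 promoters of other measured genes. CCAAT, on both strands, was found in 35 of the 45 (77.8%), against 37.4% of all promoters and 37.5% of those of other measured genes, and at least 2 CCAAT in 51.1% against 11.7%. Both motifs together were in 30 of the 45 (66.7%), against 6.95% of all, and the motifs overlapped in 1 member promoter. An E2F-like motif, GCGGGAA, was found in 1 of the 45 (2.22%), against 4.60% of all and 8.39% of the promoters of other measured genes. A match is a description of the letters and does not show a bound site.

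The 120 bases before the start are printed for 6 members, *Ube2c* and *Cks1b* because they had the highest FPKM, *Cdk1* and *Top2a* as the central kinase and the chromosome enzyme, and *Racgap1* and *Mad2l1* from the high and the low end of the log2 ratios. Capitals mark TTTGAA and CCAAT on either strand (TTCAAA and ATTGG on the opposite one), and each line runs 5′ to 3′ on the strand of the gene.
Ube2c (GRCm38.p6, chr2:164769809-164769928, plus strand): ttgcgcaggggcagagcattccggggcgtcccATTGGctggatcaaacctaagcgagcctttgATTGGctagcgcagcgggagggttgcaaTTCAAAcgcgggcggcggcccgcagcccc
Cks1b (GRCm38.p6, chr3:89418292-89418411, minus strand): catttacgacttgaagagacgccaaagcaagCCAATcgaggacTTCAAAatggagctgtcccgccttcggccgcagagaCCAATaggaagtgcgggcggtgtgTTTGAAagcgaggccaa
Cdk1 (GRCm38.p6, chr10:69352913-69353032, minus strand): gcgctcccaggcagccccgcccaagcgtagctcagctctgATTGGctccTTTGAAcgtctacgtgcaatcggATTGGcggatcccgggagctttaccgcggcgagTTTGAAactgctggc
Top2a (GRCm38.p6, chr11:99024190-99024309, minus strand): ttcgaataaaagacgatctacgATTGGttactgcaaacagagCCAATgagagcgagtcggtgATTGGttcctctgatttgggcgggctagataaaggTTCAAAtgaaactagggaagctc
Racgap1 (GRCm38.p6, chr15:99651657-99651776, minus strand): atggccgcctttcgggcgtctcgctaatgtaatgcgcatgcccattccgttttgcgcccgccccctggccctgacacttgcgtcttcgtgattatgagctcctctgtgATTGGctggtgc
Mad2l1 (GRCm38.p6, chr6:66535101-66535220, plus strand): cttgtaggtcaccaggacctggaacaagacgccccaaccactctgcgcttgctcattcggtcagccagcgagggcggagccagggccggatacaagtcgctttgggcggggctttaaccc

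In *Ube2c*, *Cks1b*, *Cdk1* and *Top2a* the TTTGAA nearest the start began 29, 17, 15 and 23 bases before it, with CCAAT boxes further upstream. *Cks1b* and *Cdk1* each held a further TTTGAA, 77 and 71 bases before the start, between CCAAT boxes. The *Racgap1* stretch held 1 CCAAT, 12 bases before the start, and its TTTGAA began 5 bases past the start, outside the printed stretch. The *Mad2l1* promoter held neither motif, as did 6 of the 45 in all. *Ube2c* and *Mad2l1* had log2 ratios of −0.91 and −0.87 on the deposited scale. Beside genes of similar level and length, described below, they lay at −0.31 and −0.53. Over the 31 member genes with TTTGAA the median log2 ratio was −0.32, and over the 11 without it −0.44. Any link between these motifs and the ratio was not tested.

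**Figure D1:**
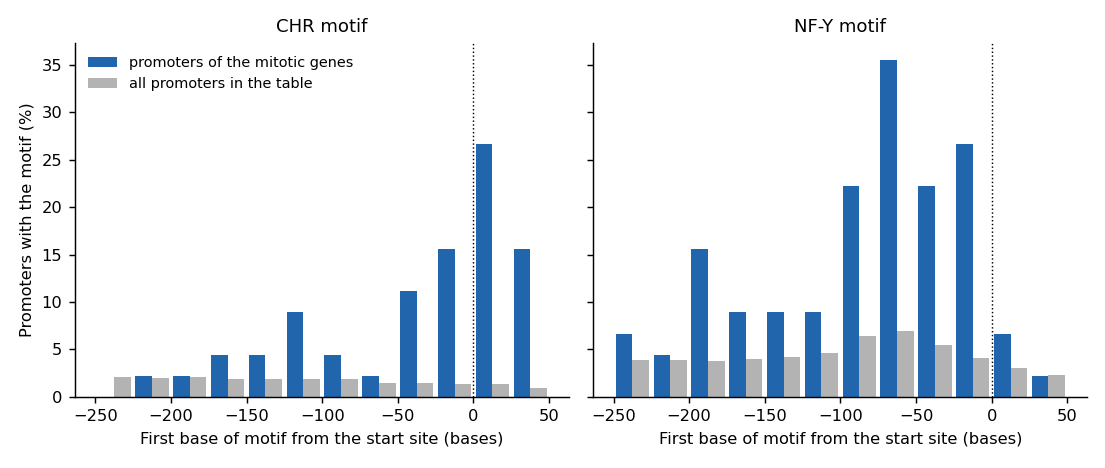
Percentage of promoters with a CHR motif (left) or an NF-Y motif (right) whose first base lies in each 25-base bin, against distance from the start site in bases, for the 45 promoters of the mitotic genes (blue) and all 32851 promoters of the table (grey). The CHR bars of the mitotic genes are tallest in the bin just past the start (26.7%, against 1.31% of all promoters) and the NF-Y bars in the bin from 75 to 50 bases before it (35.6% against 6.99%).

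The mitotic genes were at substantial levels in both libraries and none was 2-fold apart between them on the FPKM + 1 scale. The median member had 8.21 FPKM in ScxGFP-positive cells and 10.8 FPKM in ScxGFP-negative cells, where all 12096 measured genes had medians of 3.78 and 4.77 FPKM, and 46 of the 50 members lay above that median in each library. Of the 50 members 0 were at least 2-fold lower in ScxGFP-positive cells, against 9.98% of all measured genes, and 0 were at least 2-fold higher, against 4.03%. Their median log2 ratio was −0.34 and that of all measured genes −0.27, a distance of −0.074. The ratio was below 0 for 47 members, against 73.8% of all measured genes on this scale. It was below the median of all genes for 33 members, a count that the filter on low values changes.

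Members lay closer together than genes in general. The middle 50% of their log2 ratios spanned 0.24, from −0.47 to −0.23, while that of all measured genes, which include many at low levels, spanned 0.58. In the classes of similar level and length described below it spanned 0.46 at the median. The other cell cycle lists given below also spanned less than that, from 0.20 for cohesin genes to 0.45 for APC/C subunits. It was 0.29 for further mitotic genes and 0.35 for DNA replication genes, so a narrow span was not particular to the members. The order of levels was much the same in the 2 libraries, with a Spearman rho of 0.96 between the positive and the negative FPKM of the 50 members, a description across genes that share both libraries. Summed, the members took 0.346% of all FPKM in ScxGFP-positive cells and 0.360% in ScxGFP-negative cells. The sums were 560 FPKM in the positive and 793 FPKM in the negative library, but all FPKM summed to 161879 and 220416, so the shares were near each other where the sums were not. Aligned sequence behind a member (coverage times length) ranged from 14.2 to 731 kilobases in the positive and from 17.98 to 1083 kilobases in the negative library.

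**Figure D2:**
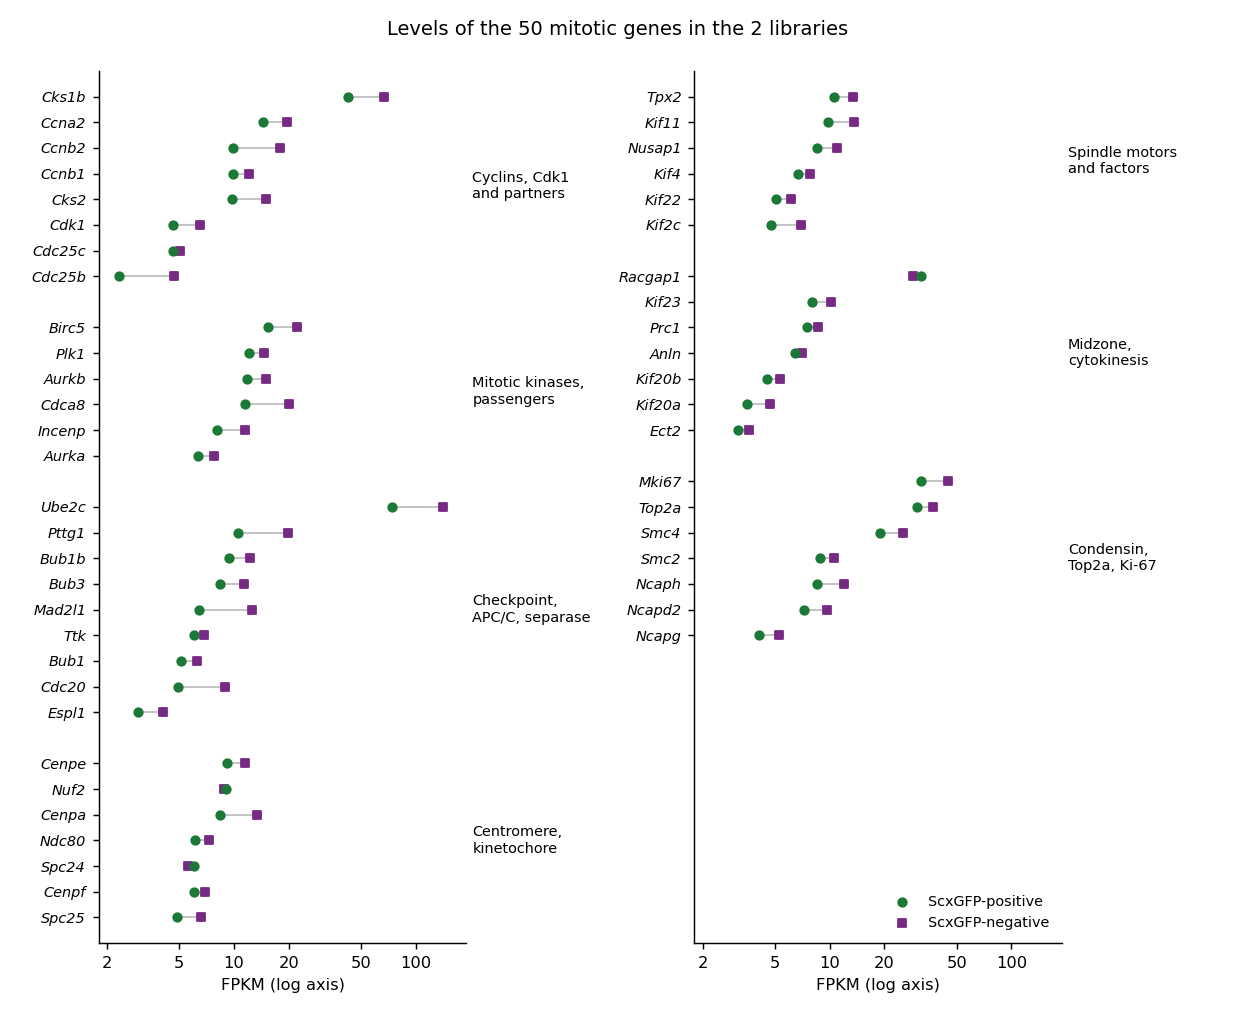
FPKM (log axis) of each of the 50 mitotic genes in the ScxGFP-positive (green circles) and ScxGFP-negative (purple squares) library, 1 library each, grouped by role. In 47 genes the circle lies left of the square, and in *Racgap1*, *Spc24* and *Nuf2* it lies right of it.

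The sign of the members' median followed the scaling of the libraries, and its distance from the median of all genes followed the filter on low values. With FPKM rescaled to equal sums (TPM) the members had a median log2 ratio of 0.060 and all genes 0.10; with the median ratio of all genes set to 1 they were at −0.041 and −0.00061. With TPM 18 of the 50 were below 0, against 47 on the deposited scale. Over the deposited scale and 11 alternatives the distance of the members from all genes ran from −0.20, without a filter on low values, to −0.00054, with a minimum of 5 FPKM, and the members below the median of all genes numbered 45 of 50 and 23 of 46 there. Among all genes past 2-fold the share that was higher also moved, to 49.3% with TPM against 28.8% on the deposited scale.

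Marker genes of other cell types also differed between the libraries. *Scx* itself stood at 134 FPKM in positive and 1.69 FPKM in negative cells. The 8 erythroid markers summed to 156 FPKM in the positive and 6429 FPKM in the negative library, with 7 of 8 at least 2-fold lower. Leukocyte markers summed to 10.9 against 403 FPKM (8 of 8 lower), epidermal markers to 11.8 against 319 (7 of 7), endothelial markers to 3.05 against 47.9 (6 of 7) and glial markers to 4.02 against 35.5 (5 of 6). Skeletal muscle markers summed to 145 FPKM in the positive and 19.3 FPKM in the negative library (5 of 8 higher), and cartilage markers to 94.5 against 76.0 (0 of 7 past 2-fold). The cartilage sum is led by *Col2a1*, at 68.1 against 40.4 FPKM; 4 of its 6 measured genes, *Sox9*, *Col9a1*, *Sox5* and *Sox6*, were lower in positive cells, and the list median was −0.42. No marker was listed at 0 in either library. The part of these cells in the levels of the mitotic genes was not tested.

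**Figure D3:**
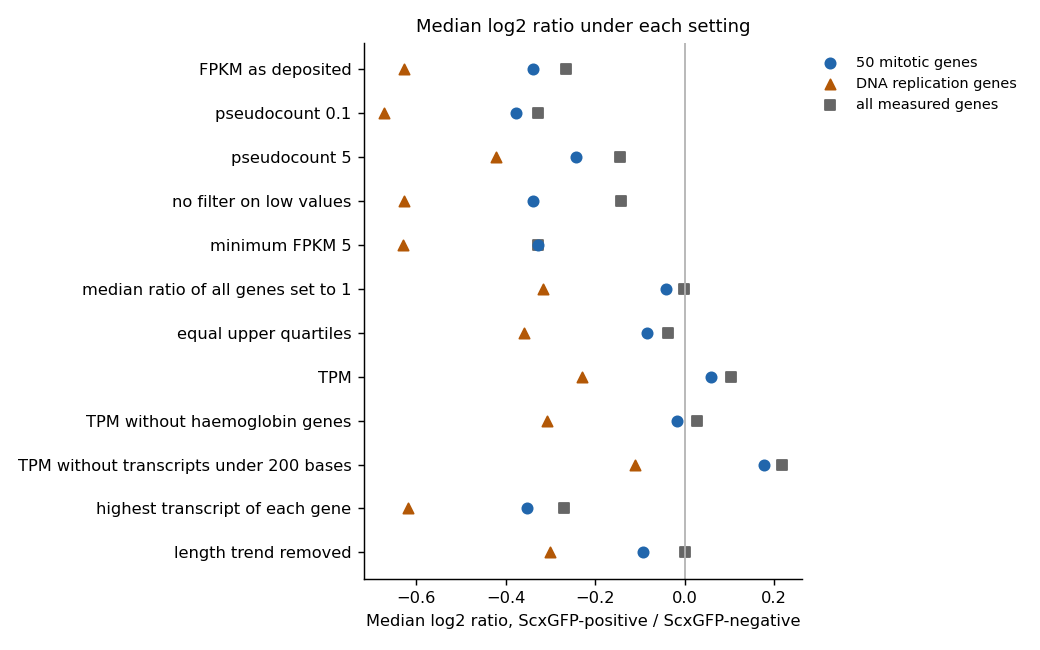
Median log2 ratio (ScxGFP-positive over ScxGFP-negative) of the 50 mitotic genes (46 with a minimum of 5 FPKM; blue circles), of DNA replication genes (orange triangles) and of all measured genes (grey squares), for the deposited FPKM and 11 alternative settings. The circles lie on both sides of 0, between −0.38 and 0.18. Their distance from the squares runs from −0.20, without a filter on low values, to −0.00054, with a minimum of 5 FPKM. The triangles lie left of both in all 12 rows.

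Cyclins, Cdk1 and their partners had a median log2 ratio of −0.49 over 8 genes, all 8 below 0 on the deposited scale. Against genes of similar level and length their median distance was −0.10, nearer 0 than that of checkpoint and APC/C genes (−0.20) and of chromosome genes (−0.15). *Ccnb1*, which encodes cyclin B1, the main mitotic cyclin, was at 9.83 FPKM in ScxGFP-positive cells, with 12.1 FPKM in ScxGFP-negative cells, a log2 ratio of −0.27 that matched the median of all genes to 2 decimals (mm9 chr13:101548694-101556441). *Ccnb2*, encoding cyclin B2, stood at 9.90 against 17.8 FPKM, a ratio of −0.79. The level of *Ccnb1* relative to *Ccnb2* was thus 0.993 in positive and 0.678 in negative cells, a quantity that library scaling leaves unchanged. *Ccna2*, encoding cyclin A2 of S and G2 phase, stood at 14.4 against 19.5 FPKM, and *Cdk1*, the kinase itself, at 4.61 against 6.47, both with a ratio of −0.41. *Cks1b* and *Cks2* encode small proteins that bind Cdks and help them recognise substrates. *Cks1b* was the second highest member, at 42.2 FPKM in positive and 66.98 FPKM in negative cells, and *Cks2* stood at 9.77 against 14.9; the first was 4.32 times the second in positive and 4.49 times in negative cells. The activating phosphatase genes differed from each other: *Cdc25b*, which acts early at the centrosome, stood at 2.32 against 4.68 FPKM, and *Cdc25c* at 4.58 against 5.02. Summed over its transcripts, *Cdc25b* was the 1 member whose positive FPKM was at most 50% of the negative one, at 49.6%, where 15.4% of all measured genes were. On the FPKM + 1 scale its ratio was −0.77, short of 2-fold. That value rests on its 3106-base transcript, listed at 0.394 FPKM in positive and 2.89 FPKM in negative cells, while the 3028-base one was listed at 1.93 against 1.79. With only the transcript of highest mean FPKM over both libraries, the 3028-base one, the ratio of *Cdc25b* turned to 0.072.

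The mitotic kinases and the chromosomal passenger complex were split by subunit. *Plk1*, the kinase of centrosome maturation and mitotic entry, stood at 12.1 FPKM in ScxGFP-positive and 14.7 FPKM in ScxGFP-negative cells. *Aurka*, the spindle pole kinase, stood at 6.33 against 7.77 FPKM, and *Aurkb*, the passenger kinase that corrects faulty attachments, at 11.8 against 15.0. Their ratios were −0.25, −0.26 and −0.32, all close to the median of all genes. The other passenger subunits were further below that median, with *Incenp*, the scaffold, at 8.08 against 11.5 FPKM (−0.46), *Birc5*, encoding survivin, at 15.5 against 22.2 (−0.50), and *Cdca8*, encoding borealin, at 11.5 against 20.04 (−0.75). *Birc5* has 2 transcripts in the files: the short one of 972 bases was listed at 12.7 FPKM in positive and 19.7 FPKM in negative cells, and the long one of 3416 bases at 2.80 against 2.56. Against genes of similar level and length *Birc5* lay 0.11 above and *Aurkb* 0.068 above, while *Incenp* and *Cdca8* lay at −0.17 and −0.36, and the 6 kinase and passenger genes had a median distance of 0.047.

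Checkpoint and APC/C genes held the 3 lowest ratios of the 50 on the deposited scale. *Ube2c*, encoding the ubiquitin-conjugating enzyme that starts chains for the APC/C, was the highest member in both libraries, at 74.4 FPKM in ScxGFP-positive and 141 FPKM in ScxGFP-negative cells (mm9 chr2:164595429-164598402). Its ratio of −0.91 was the lowest of all members on the deposited scale; *Cdc25b* was lowest with a pseudocount of 0.1, the 3 TPM scalings and the length trend removed, and *Ect2* with the highest transcript. *Mad2l1*, encoding the checkpoint protein Mad2 that restrains Cdc20, stood at 6.39 against 12.51 FPKM, a ratio of −0.87 (mm9 chr6:66485462-66490985). *Pttg1*, encoding securin, the inhibitor of separase, stood at 10.5 against 19.7 FPKM, a ratio of −0.85. Beside genes of similar level and length it lay at −0.37. Its 740-base transcript was listed at 8.90 against 17.9 FPKM and its 1690-base transcript at 1.59 against 1.74. *Cdc20*, the APC/C activator, stood at 4.94 against 8.94 FPKM, a ratio of −0.74, and *Ube2c* was 15.1 times *Cdc20* in positive and 15.8 times in negative cells. The checkpoint kinase genes were nearer the median of all genes. *Bub1* stood at 5.08 against 6.26 FPKM and *Ttk*, encoding Mps1, at 6.00 against 6.85, with ratios of −0.26 and −0.17. *Bub1b*, encoding BubR1, stood at 9.35 against 12.3 FPKM, *Bub3* at 8.34 against 11.3, and *Espl1*, encoding separase, at 2.97 against 4.06.

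Kinetochore genes included 2 of the 3 members that were higher in ScxGFP-positive cells by any amount on the deposited scale. Both belong to the Ndc80 complex, which holds microtubule ends: *Nuf2* stood at 9.01 FPKM in positive and 8.80 FPKM in negative cells, and *Spc24* at 6.01 against 5.58, ratios of 0.030 and 0.090. The other subunits were on the other side, *Ndc80* at 6.08 against 7.29 FPKM (−0.23) and *Spc25* at 4.86 against 6.59 (−0.37). *Spc24* and *Spc25*, whose proteins bind each other, lay on opposite sides of the median of all genes. The value of *Spc24* is that of 1 transcript of 1349 bases, and that of *Spc25* sums 3, of 1582, 1348 and 1195 bases. *Spc24* rests on 18.5 kilobases of aligned sequence in positive and 17.98 in negative cells, and *Spc25* on 14.2 and 20.7. Against genes of similar level and length both were above, by 0.48 and 0.013, and 0 of the 4 Ndc80 complex genes lay below. *Cenpa*, the centromeric histone H3 variant, stood at 8.34 against 13.4 FPKM, a ratio of −0.62, or −0.24 beside genes of similar level and length. The motor gene *Cenpe* stood at 9.19 against 11.5 FPKM and *Cenpf*, encoding a large outer kinetochore protein, at 6.00 against 6.93.

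Spindle motors and assembly factors lay in a narrow band from −0.47 to −0.19 on the deposited scale. Beside genes of similar level and length they ran from −0.31 (*Kif11*) to 0.089 (*Kif22*), with a median of −0.076 and 4 of 6 below. *Kif11*, the motor that pushes spindle poles apart, was at 9.84 FPKM in ScxGFP-positive cells, with 13.52 FPKM in ScxGFP-negative cells. *Tpx2*, the activator of Aurora A, stood at 10.5 against 13.4 FPKM, and was 1.67 times *Aurka* in positive and 1.73 times in negative cells. *Kif2c*, a microtubule depolymerase, stood at 4.76 against 6.98 FPKM, and *Nusap1*, a microtubule-bundling protein gene, at 8.52 against 11.02. The chromosome-bound motor genes *Kif4* and *Kif22* stood at 6.70 against 7.78 and at 5.08 against 6.11 FPKM.

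Genes of the midzone and of cytokinesis had the highest median of the roles, −0.18 over 7 genes; beside genes of similar level and length it lay 0.038 above, with the kinase and passenger genes at 0.047. *Racgap1* had the highest ratio of the 50, 0.14 (with the length trend removed *Spc24* was highest), at 31.8 FPKM in ScxGFP-positive and 28.7 FPKM in ScxGFP-negative cells (mm9 chr15:99450927-99482052). Its protein and that of *Kif23* form centralspindlin, and *Kif23* stood at 7.96 against 10.2 FPKM (−0.32), so *Racgap1* was 3.99 times *Kif23* in positive and 2.82 times in negative cells. *Prc1*, the midzone bundler, stood at 7.50 against 8.63 FPKM, *Anln*, encoding the ring protein anillin, at 6.43 against 7.01, and *Kif20a* and *Kif20b*, midzone motor genes, at 3.49 against 4.70 and 4.52 against 5.35. *Ect2*, the exchange factor that activates RhoA, stood at 3.13 against 3.61 FPKM as a sum of 3 transcripts. Those transcripts went apart: the one of 3986 bases was listed at 0.181 FPKM in positive and 2.69 FPKM in negative cells, that of 4024 bases at 1.14 against 0.575 and that of 4079 bases at 1.82 against 0.346. With only the transcript of highest mean FPKM over both libraries kept per gene, *Ect2* was the 1 member past 2-fold, at −1.64. That transcript was the 3986-base one, which had the lowest FPKM of the 3 in positive cells. The 4079-base one, highest in positive cells, was higher there than in negative cells, so this call rests on the transcript chosen. How well fragments were divided among such overlapping transcripts was not tested.

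Genes of chromosome structure were all below the median of genes of similar length and level. *Mki67*, encoding the surface protein of mitotic chromosomes and common proliferation marker Ki-67, stood at 31.8 FPKM in ScxGFP-positive and 45.0 FPKM in ScxGFP-negative cells, a ratio of −0.49 on the most aligned sequence of any member (mm9 chr7:142881471-142908062). *Top2a*, encoding topoisomerase II alpha, stood at 30.4 against 36.8 FPKM, a ratio of −0.27. *Mki67* was 1.05 times *Top2a* in positive and 1.22 times in negative cells. The 5 condensin I genes had ratios from −0.44 to −0.24: *Smc4* stood at 19.0 against 25.4 FPKM, *Smc2* at 8.79 against 10.6, *Ncaph* at 8.54 against 12.0, *Ncapd2* at 7.19 against 9.71 and *Ncapg* at 4.07 against 5.29. The level of *Smc4* was 2.16 times that of *Smc2*, its partner in the ring, in positive and 2.41 times in negative cells.

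**Figure D4:**
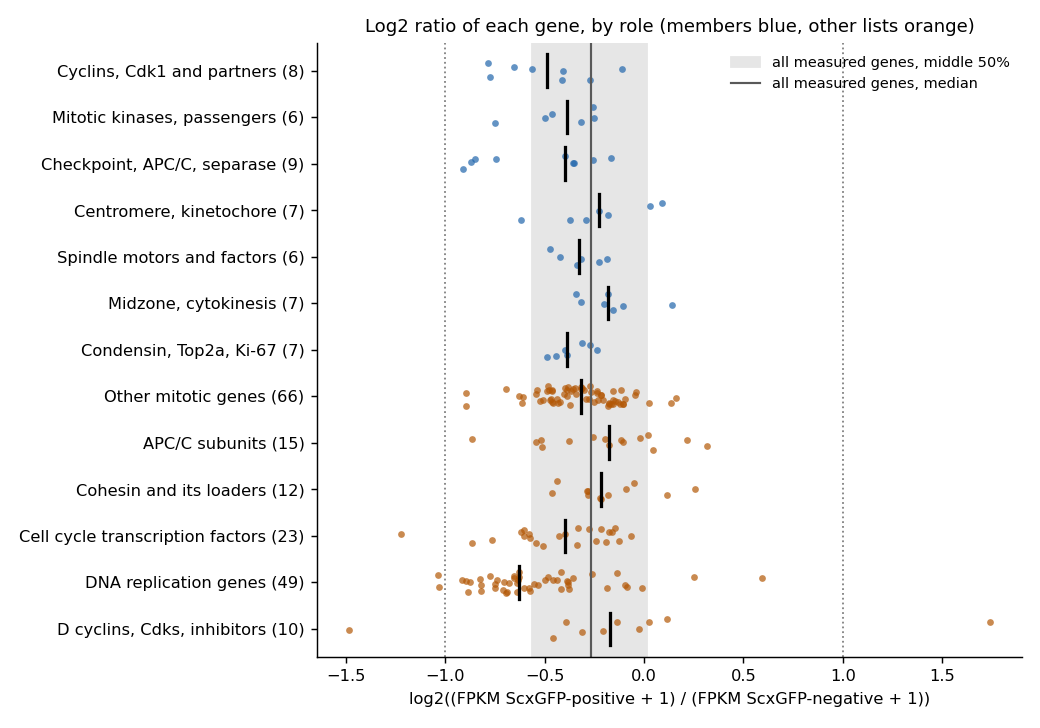
Log2 ratio of each gene, 1 point per gene, by role for the 50 mitotic genes (blue) and for other fixed lists (orange), with the number of measured genes in brackets, black bars at the list medians, the median and middle 50% of all measured genes in grey, and dotted lines at 2-fold. No blue point lies past a dotted line; list medians run from −0.63 for DNA replication genes to −0.17 for D cyclins, Cdks and inhibitors.

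Ratios of the members went with transcript length. The 15 members under 2000 bases had a median log2 ratio of −0.62, the 21 from 2000 to under 4000 bases −0.32, and the 14 of 4000 bases and over −0.28; fewer than 20 genes stand behind the first and the last of these. All measured genes in the same length classes had medians of −0.41, −0.25 and −0.16. Across the 50 members the log2 ratio and log2 length had a Pearson r of 0.44 and a Spearman rho of 0.41, and across all 12096 genes 0.042 and 0.21, as descriptions of genes that share both libraries. Each member was therefore set beside the non-members of its own level and length class (10 level classes, 5 length classes in each, 237 to 241 genes). The members' median distance from their classes was −0.068, with 33 below and 17 above, and the classes held 6.30% of genes at least 2-fold lower and 3.17% at least 2-fold higher, weighted by members. Over the 5513 non-members of those classes the shares were 6.00% and 3.28%. *Cdc25b*, *Mad2l1* and *Cdc20* lay furthest below their classes, by −0.54, −0.53 and −0.43, and *Racgap1*, *Spc24* and *Nuf2* furthest above, by 0.48, 0.48 and 0.37. The place of *Cdc25b* rests on 1 of its 2 transcripts, as given above. *Ube2c* lay −0.31 from its class, whose own median was −0.60.

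**Figure D5:**
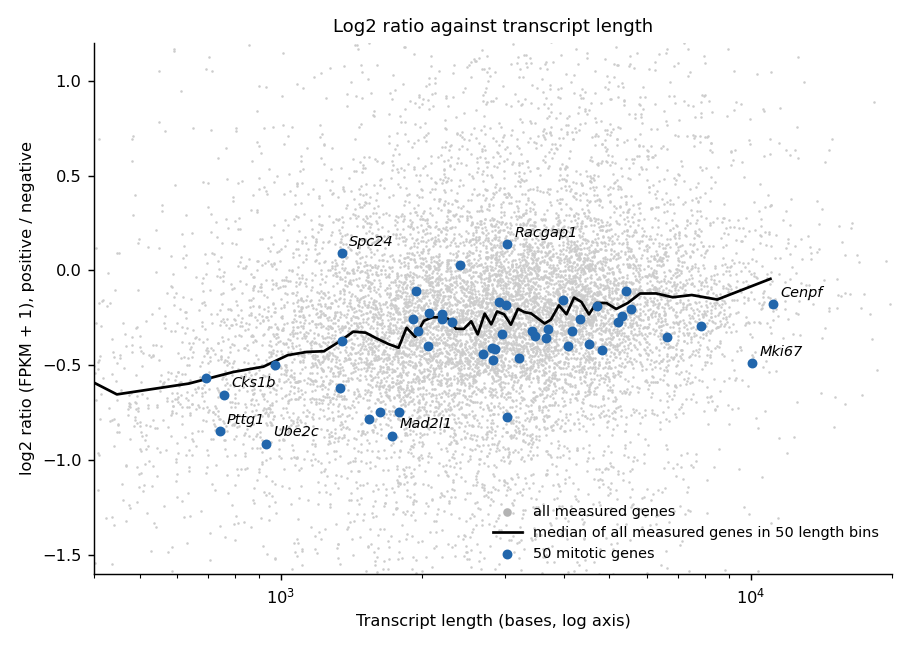
Log2 ratio (ScxGFP-positive over ScxGFP-negative, FPKM + 1) against transcript length in bases (log axis) for all measured genes (grey points), their median in 50 length bins (black line) and the 50 mitotic genes (blue). Short members such as *Ube2c* and *Pttg1* sit low and so does the black line there; 1046 of 12096 genes lie outside the axes drawn.

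Other lists of the mitotic programme lay on both sides of all genes, with further mitotic genes nearest the members. Of 73 further mitotic symbols 68 were in the files and 66 were measured. Of these 0 were 2-fold lower and 0 higher, against 9.98% and 4.03% of all measured genes. Their median log2 ratio was −0.32, or −0.051 from that of all genes, where the members were at −0.074. The lowest were *Cdca5*, encoding sororin, which protects sister cohesion, at 2.35 FPKM in ScxGFP-positive and 5.23 FPKM in ScxGFP-negative cells, and *Pmf1*, a kinetochore gene, at 5.67 against 11.4. Subunits and partners of the APC/C had a median of −0.18 over 15 measured genes, 0.089 above that of all genes, with *Ube2s*, the chain-elongating enzyme, lowest at 17.0 against 31.7 FPKM. Cohesin genes had a median of −0.22 over 12, 0.048 above that of all genes. Beside genes of similar level and length they lay at −0.043, with 7 of 12 below, where the APC/C list lay 0.092 above. None was past 2-fold in either list. Transcription factors of the cell cycle had a median of −0.40 over 23. Among them 1 was 2-fold lower, *E2f2* at 2.20 against 6.47 FPKM, where 9.98% of all measured genes were. That count was 0 with a pseudocount of 5, the median ratio set to 1, equal upper quartiles and TPM without transcripts under 200 bases. It was 2 with the highest transcript. *Foxm1*, the forkhead activator of G2 and M phase genes, stood at 9.91 against 12.8 FPKM and *Mybl2*, encoding B-Myb, at 2.80 against 4.77.

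DNA replication genes, active in S phase, had a lower median log2 ratio than the mitotic genes. Among all measured genes 9.98% were at least 2-fold lower in ScxGFP-positive cells and 4.03% at least 2-fold higher. Of the 49 replication genes measured, 2 were lower, *Rpa3* at 6.01 against 13.4 FPKM and *Fen1* at 1.89 against 4.91, and 0 were higher. That count depends on the setting: 6 were lower with a pseudocount of 0.1 and 4 with the highest transcript, 1 with a minimum of 5 FPKM, 0 with a pseudocount of 5, with the other scalings and with the length trend removed, and 1 was higher under each of the 3 TPM scalings. Their median log2 ratio was −0.63, or −0.36 from that of all genes, and −0.27 from genes of similar length and level, with 41 of 49 below their classes. *Pcna*, the sliding clamp, stood at 36.4 FPKM in positive and 69.6 FPKM in negative cells and *Mcm2*, a helicase subunit, at 14.3 against 24.5. Their median lay below that of the mitotic genes on the deposited scale and under all 11 alternatives, a difference between lists in 2 libraries that has no test. Among D-type cyclins, their kinases and Cdk inhibitors, of which 10 of 13 were measured, *Ccnd1* stood at 29.7 against 34.4 FPKM and *Ccnd2* at 45.7 against 42.0. *Cdkn1c*, encoding the inhibitor p57, was at 212 FPKM in positive and 62.6 FPKM in negative cells, and *Cdkn1a*, encoding p21, at 3.99 against 5.55. *Cdk6*, a partner of D-type cyclins, was at 5.17 against 16.3. On the deposited scale with transcripts summed, no mitotic gene showed a difference of the size of those for *Cdkn1c* and *Cdk6*, with log2 ratios of 1.74 and −1.48. These 2 ratios were the largest in size of the 10 in their list, whose median was −0.17. With the highest transcript alone *Ect2* was at −1.64.

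Some members share sequence or position with other genes. The loci of *Ccna2*, *Cdc20*, *Kif20a*, *Nusap1* and *Ncapg*, introns included, overlap another gene in the files, for example *Cdc20* with *Elovl1* (4.40 against 10.7 FPKM). The library chemistry named in the labels does not mark strand, so reads in any shared exon sequence cannot be assigned by strand. Whether exons overlap was not tested. For *Ccnb1*, *Ccnb2*, *Kif4*, *Kif22* and *Cks1b* the RefSeq gene table names a pseudogene or related copy, so their values are uncertain where the counting could split reads. Without these 10 the median of the remaining 40 was −0.34.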

How the data were processed

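RNA was measured by sequencing of 2 libraries, 1 per sorted population; per the labels' protocols, total RNA went through the NuGEN Ovation v2 chemistry, which amplifies small amounts of RNA. Reads were aligned to mm9 with TopHat 1.4.1 over Bowtie 0.12.7, as named in the submitters' processing notes; abundances have the column layout of Cufflinks (version not given in the sources used here). Each deposited file gives 28107 RefSeq transcripts with length, coverage, FPKM and status, per the file headers. The authors' deposited FPKM is normalised to transcript length and mapped fragments, and the deposited coverage is a signal of depth over the transcript. Coverage divided by FPKM was constant in a library, at 2.28 in the positive and 2.39 in the negative one, and coverage times length summed to 0.686 and 0.874 gigabases. Read counts are not given, so depth in reads is unknown and no counting interval is printed. Files' positions are printed with 1 added to the start.

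FPKM was summed per symbol, and symbols with a failed row (2 among the positive cells' values and 4 among the negative ones, none a member) were left out. A gene counted as measured at 1 FPKM or more in at least one library (12096 genes); the pseudocount was 1 and the fold 2. Level and length classes used non-members only. Sums, medians and folds were computed with Python 3.11.15, pandas 2.3.3 and numpy 2.4.6 and tested on simulated data. The members and the lists were chosen with earlier results of these data known. Named in full are the 3 highest and 3 lowest ratios, the highest FPKM values and a fixed set of core genes; from other lists, those of largest ratio and a fixed set. Of the other lists' symbols, *Ska2*, *Ska3*, *Bora*, *Haspin*, *Dlg7* and *Anapc15* were not matched in the files. Alternatives were other pseudocounts, filters, scalings, 1 transcript per gene and removal of the length trend. The 1 transcript was that of highest mean FPKM over both libraries. After seeing the data 2 subsets of the members were added.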

Additional observations from a re-analysis of the deposited data

How the results depend on the processing

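The count of members at least 2-fold lower stayed at 0 under 10 of the 11 alternatives. It was 1 (*Ect2*) with the highest transcript of each gene, chosen by mean FPKM over both libraries. The count at least 2-fold higher stayed at 0 under all 11. With 1 transcript per gene, the place of *Ect2* in these counts rests on that choice, as its transcripts differed in direction. The median log2 ratio of the members, −0.34 on the deposited scale, was −0.041 with the median ratio of all genes set to 1, −0.084 with equal upper quartiles, 0.060 with TPM, −0.018 with TPM without haemoglobin genes, 0.18 with TPM without transcripts under 200 bases, and −0.092 with the length trend removed. All genes moved with it, to −0.00061, −0.038, 0.10, 0.027, 0.22 and 0 in the same order, so the sign of the median depends on the scaling. With pseudocounts of 0.1 and 5, no filter, a minimum of 5 FPKM (46 members) and the highest transcript it was between −0.38 and −0.24. The split of all genes past 2-fold, 1207 lower and 488 higher on the deposited scale, was 1164 and 1133 with TPM, and 1071 and 1309 without short transcripts. In the subsets chosen after seeing the data the median was −0.34 without members that overlap a gene or have a named copy and −0.33 with members of 1 transcript, with 40 members in each. No paired analysis was possible because each population has 1 library and no test was run. Leaving out a replicate was not possible for the same reason.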
